A study of Mus musculus with 8 samples.

Results

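The transcripts of 41 enzymes and cofactor-regenerating proteins that break down amino acids were followed in cultured mouse hepatocytes, the parenchymal cells of the liver, after loss of Taf2. Members were the genes for tyrosine, tryptophan, branched-chain, glycine, proline, histidine, lysine and sulphur amino acid breakdown, with linked transamination, propionate and glyoxylate steps, and were taken by gene symbol. All 41 were found among the 24411 genes of the table, and all 41 passed the filter on low counts that left 12122 genes for testing. The knockout group came from mice with Taf2 deleted conditionally in hepatocytes (TAF2 KO, 4 libraries), and the group it was set against came from wild-type mice (WT, 4 libraries). All cells had been plated and were collected 2 days later. Taf2 encodes a subunit of TFIID, the general transcription factor that recognizes core promoters. Not given in the sources used here were the Cre driver, the strain, age and sex of the mice, and whether the cultures were treated. Nothing in them says whether replicates came from separate animals, so p-values measure the spread between these libraries, which may be technical.

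The liver is the main site of breakdown of most amino acids, apart from the first step of branched-chain amino acid use, which in mammals takes place mostly in muscle and other tissues. Each carbon skeleton is taken through its own chain of enzymes into intermediates of central metabolism, and the nitrogen is passed by transaminases to glutamate, from which glutamate dehydrogenase releases ammonia for the urea cycle. Inherited loss of several of these enzymes causes tyrosinaemia, maple syrup urine disease, propionic acidaemia or hyperoxaluria in people.

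Taf2 itself stood at 12.7 to 15.7 CPM in the knockout libraries and 42.2 to 46.4 CPM in the wild-type libraries, in the direction of the labels in every library, although the part of the gene that was deleted is not stated. Here CPM is the estimated count relative to the library total after scaling between libraries (TMM). Estimated counts summed to between 20287023 and 23933589 per knockout library and between 18947059 and 22824568 per wild-type library. The 9 hepatocyte markers in the table (5 called higher, 3 called lower) were detected in every library. Their summed level was 69059 to 76443 CPM in the knockout and 54161 to 59075 CPM in the wild type. Most of that sum was Alb, at a mean of 55183 CPM in the knockout and 38035 CPM in the wild type, so the sum mainly follows this gene. The 3 called lower were Apoa1, Apob and Cps1. Markers of the non-parenchymal cells were mostly higher in the knockout libraries. For macrophages 11 of 11 tested markers were higher, with summed levels of 237 to 267 CPM in the knockout and 87.8 to 117 CPM in the wild type, and Timd4 stayed below 1 CPM. Most of that sum was Cd68, at a mean of 172 CPM in the knockout and 84.1 CPM in the wild type. The median log2 fold change of the tested macrophage markers was 2.53. For endothelial cells 9 of 9 were higher, at 117 to 125 CPM in the knockout and 45.6 to 51.2 CPM in the wild type, with Clec4g below 1 CPM. For stellate cells 9 of 10 were higher, at 139.5 to 153 CPM in the knockout and 65.4 to 69.8 CPM in the wild type, with Des, Col1a1, Col1a2 and Lum below 1 CPM in both genotypes. Most of the stellate sum was Reln, at a mean of 102 CPM in the knockout and 61.7 CPM in the wild type. The median log2 fold change of the stellate markers was 2.50. For cholangiocytes 2 of 5 tested markers were higher and 3 lower, at 171 to 199 CPM in the knockout and 136 to 151 CPM in the wild type, and Epcam and Cftr were below 1 CPM. Their part in the results below was not tested. In bulk RNA, fewer cells of a type and less RNA per cell cannot be told apart.

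Amino acid breakdown genes changed in both directions in the knockout, with Tdo2 (2.43-fold higher) and Aass (2.20-fold lower) among the largest changes. Of the 41 members 20 fell (48.8%) and 10 rose (24.4%), while 11 did not pass. A call means an adjusted p under 0.05 in edgeR's quasi-likelihood test, with Benjamini-Hochberg adjustment over all genes tested. Over all genes tested 31.2% fell and 30.2% rose, 61.4% together, against 73.2% of the members. The background was also taken over genes averaging 10 CPM or more, of which 35.9% fell and 28.7% rose. Of the 38 members at that level 19 fell and 8 rose. The share of members that rose was thus near or below the background, and the share that fell was above it. The median log2 fold change of the members was -0.13, against 0.00 over all genes tested, and it lay between -0.16 and -0.096 under every alternative. The median size of the change was 0.37 for the members and 0.22 for all genes tested. CPM values of the genotypes did not overlap for 29 members (70.7%), against 54.7% of all genes tested. Most changes were modest. Only Tdo2, Aass and Bcat2 were called with a change of at least 1 on the log2 scale, as were 9.5% of all genes tested, and 15 of the 30 called members changed by less than 0.5.

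**Figure D1:**
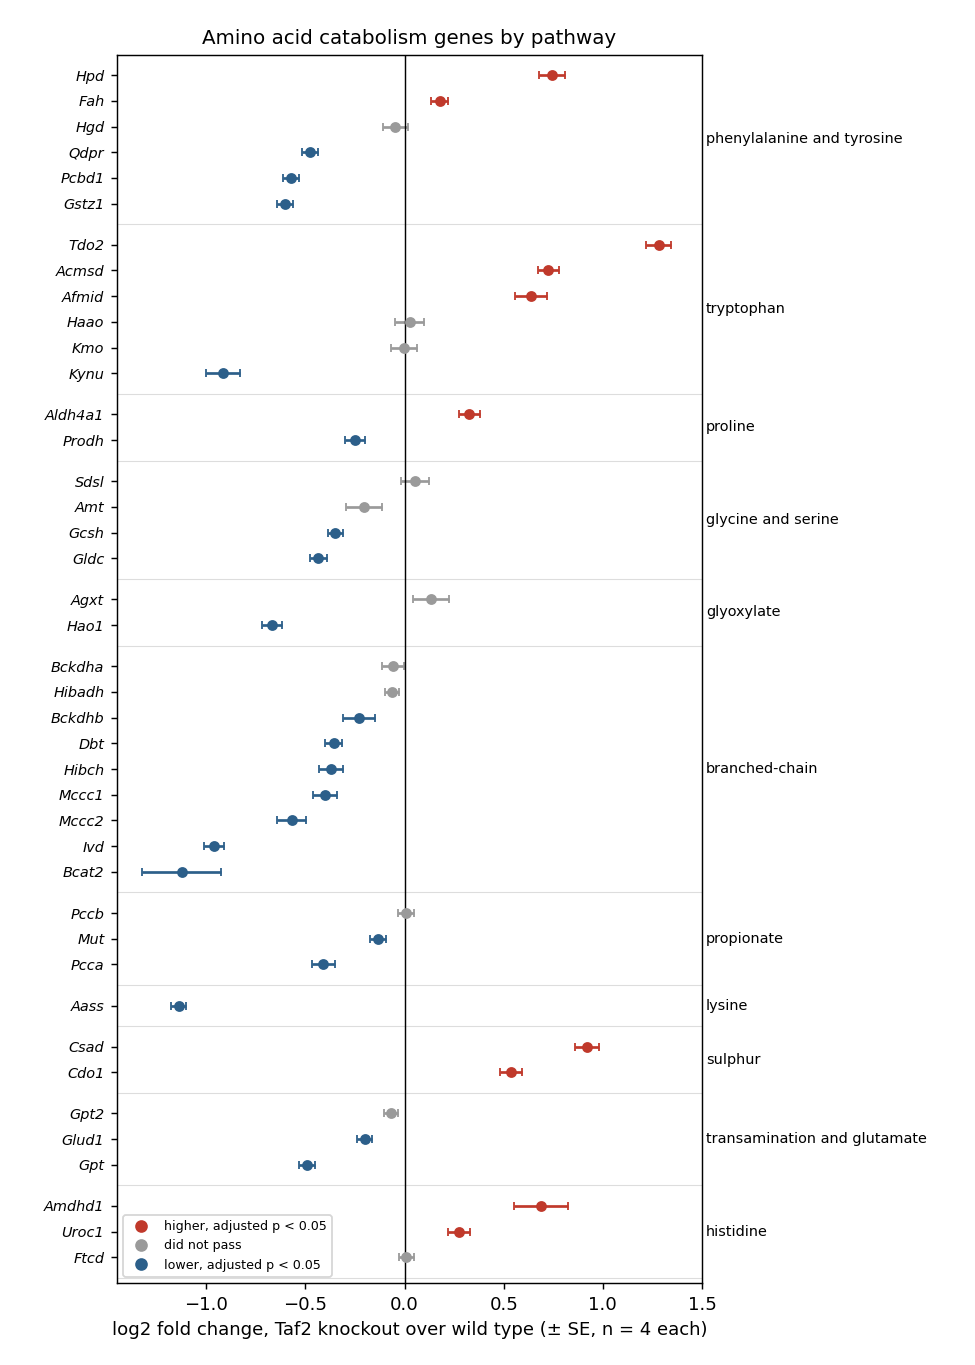
Log2 fold change (Taf2 knockout over wild type, x axis) of each of the 41 members, grouped by pathway, with standard errors as bars and colour for the call. All 9 branched-chain genes lie below 0 and both sulphur amino acid genes above it, while the tyrosine and tryptophan pathways hold genes on each side.

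The RefSeq promoters of the 3 members with the largest rises (Tdo2, Csad and Hpd) and of the 3 with the largest falls (Aass, Bcat2 and Ivd) are shown because these genes set the ends of the range, and because Taf2 belongs to the complex that binds core promoters. Each run is the 250 bases before 1 annotated RefSeq start on the gene's own strand, build GRCm38.p6. A gene can have several starts, and for Csad (chr15:102176997-102205052) and Bcat2 (chr7:45568967-45589710) the run lies inside the annotated span of the gene, as the end of the run does for Ivd (chr2:118861959-118882909). They lie at chr3:81975729-81975978 (minus strand) for Tdo2, chr15:102189044-102189293 (minus) for Csad, chr5:123182724-123182973 (minus) for Hpd, chr6:23132987-23133236 (minus) for Aass, chr7:45569903-45570152 (plus) for Bcat2 and chr2:118861744-118861993 (plus) for Ivd. Capitals mark matches on either strand to 6 motifs. These were the TATA box, spelled TATAAA, and the CCAAT box, spelled as it is named. The GC box was searched for with the letters GGGCGG. For the liver factor HNF1 the letters searched for were GTTAAT, and for C/EBP factors they were TTGCNNAA. The cAMP response element was searched for as TGACGTCA.
Tdo2: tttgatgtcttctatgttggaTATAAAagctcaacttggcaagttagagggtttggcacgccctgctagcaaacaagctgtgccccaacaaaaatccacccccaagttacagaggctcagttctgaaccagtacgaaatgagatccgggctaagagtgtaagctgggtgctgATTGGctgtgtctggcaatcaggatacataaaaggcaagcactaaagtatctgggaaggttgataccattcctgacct
Csad: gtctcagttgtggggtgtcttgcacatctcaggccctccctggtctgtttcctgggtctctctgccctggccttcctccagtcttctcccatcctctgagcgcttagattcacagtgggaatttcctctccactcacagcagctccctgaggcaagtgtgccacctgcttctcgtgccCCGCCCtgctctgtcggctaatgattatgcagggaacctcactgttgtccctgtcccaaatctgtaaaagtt
Hpd: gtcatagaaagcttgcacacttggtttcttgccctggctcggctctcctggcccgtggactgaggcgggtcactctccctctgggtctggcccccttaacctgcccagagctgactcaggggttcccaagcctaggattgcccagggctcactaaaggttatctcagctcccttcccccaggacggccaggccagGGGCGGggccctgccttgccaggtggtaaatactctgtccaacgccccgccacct
Aass: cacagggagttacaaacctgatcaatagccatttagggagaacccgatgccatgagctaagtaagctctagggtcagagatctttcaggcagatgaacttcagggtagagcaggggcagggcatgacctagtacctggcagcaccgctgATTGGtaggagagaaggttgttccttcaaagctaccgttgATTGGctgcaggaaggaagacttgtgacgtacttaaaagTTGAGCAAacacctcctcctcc
Bcat2: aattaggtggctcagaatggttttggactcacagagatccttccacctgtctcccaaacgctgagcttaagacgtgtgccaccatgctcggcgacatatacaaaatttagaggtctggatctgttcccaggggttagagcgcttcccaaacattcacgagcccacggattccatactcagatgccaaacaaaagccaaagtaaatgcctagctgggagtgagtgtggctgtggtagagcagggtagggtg
Ivd: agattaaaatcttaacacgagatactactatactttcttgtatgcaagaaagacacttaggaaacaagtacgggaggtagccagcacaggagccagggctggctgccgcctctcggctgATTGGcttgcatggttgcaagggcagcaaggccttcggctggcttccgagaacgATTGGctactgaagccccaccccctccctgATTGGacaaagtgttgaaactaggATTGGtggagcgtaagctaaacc

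Ivd held 4 matches to CCAAT in these 250 bases, starting at -131, -77, -47 and -23 from the annotated start. Aass held a pair of CCAAT matches, at -101 and -61, and a C/EBP match at -22. Among the genes that rose, Tdo2 had a TATAAA match far from its start, at -229, and a CCAAT match at -78, whereas Csad and Hpd each had 1 GC box, at -72 and -55. Bcat2 had no match to any of the 6 motifs. In these promoters no match overlapped another. For Tdo2 the start of the counted transcript in the GENCODE annotation lies 474 bases from the RefSeq start, and for the other 5 genes it lies within 40 bases. Promoters were matched for 35 of the 41 members, with only the start nearest the counted transcript kept for each. The 32817 promoters set beside them hold every distinct annotated start, so a gene can count several times. They were not limited to the genes tested, so the shares are not like for like. CCAAT was found in 15 of the 35 members (42.9%) against 33.8% of the 32817 promoters, all of the same length. It was found in 9 of 16 members that fell and 3 of 9 that rose. The GC box was found in 16 members (45.7%) against 32.7% of all promoters, in 8 of 16 that fell and 5 of 9 that rose, and TATAAA in 4 (11.4%) against 12.4%. The HNF1 motif (6.44% of all promoters) and the C/EBP motif (9.57%) were each found in 4 members, and the cAMP response element (1.55%) in 0. A match is a description of letters and not a binding site.

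Tryptophan breakdown showed the widest spread. Tdo2, tryptophan dioxygenase, makes the first and rate-limiting cut of the pathway. It stood at 40.97, 38.7, 45.04 and 39.7 CPM in the knockout libraries, against 18.3, 16.9, 15.2 and 17.1 CPM in the wild-type libraries. Every knockout library was above every wild-type one, and the fitted change was 2.43-fold (log2 fold change 1.28 with SE 0.062 and edgeR adjusted p = 5.34e-13). The formyl group of its product is removed by the formamidase Afmid, which also rose (10.002 ± 0.567 CPM in the knockout, 6.44 ± 0.425 CPM in the wild type; SD, n = 4 each; log2 fold change 0.64 with SE 0.082 and edgeR adjusted p = 1.18e-06).

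At the next steps the direction differed. Kmo, the kynurenine hydroxylase of the outer mitochondrial membrane, averaged 36.2 ± 4.05 CPM in the knockout and 36.4 ± 1.65 CPM in the wild type (SD, n = 4 each; edgeR adjusted p = 0.979). Kynu, kynureninase, stood at 17.1, 17.6, 14.4 and 21.9 CPM in the knockout libraries, against 33.4, 32.2, 36.3 and 31.9 CPM in the wild-type libraries. The genotypes did not overlap although knockout replicate 4 was higher than the others, and the fitted level fell 1.89-fold (log2 fold change -0.92 with SE 0.085 and edgeR adjusted p = 1.26e-08). Kynu relative to Kmo within each library was lower in the knockout by 0.92 on the log2 scale, with no overlap.

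At the end of the pathway the ring is opened by the dioxygenase Haao, which makes the unstable semialdehyde from which quinolinate and then NAD are formed, and Acmsd decarboxylates that semialdehyde toward complete oxidation. Acmsd rose to 109, 107, 107 and 104 CPM in the knockout libraries, against 64.3, 73.9, 61.1 and 58.9 CPM in the wild-type libraries (log2 fold change 0.73 with SE 0.051 and edgeR adjusted p = 1.85e-10). Haao averaged 17.7 ± 2.10 CPM in the knockout and 17.4 ± 0.323 CPM in the wild type (SD, n = 4 each; edgeR adjusted p = 0.787). There were 5.51 to 6.78 Acmsd counts for each Haao count in the knockout libraries and 3.47 to 4.17 in the wild-type libraries. The difference of the log2 ratio, 0.72, gave p = 0.029 in an exact two-sided permutation test of 4 against 4, the smallest this design allows. Adjusted over the 4 gene pairs chosen for testing, this exact permutation p was 0.038. All 4 pairs were chosen with earlier results of these data known.

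In tyrosine breakdown, genes of consecutive steps moved apart. Hpd, the dioxygenase that makes homogentisate, stood at 101, 82.8, 113 and 90.8 CPM in the knockout libraries, against 57.9, 56.3, 55.2 and 62.0 CPM in the wild-type libraries. All knockout libraries were higher, with replicates 1 and 3 above replicates 2 and 4 (log2 fold change 0.74 with SE 0.067 and edgeR adjusted p = 8.33e-09). Hgd, which opens the homogentisate ring, averaged 18.4 ± 1.09 CPM in the knockout and 18.996 ± 1.04 CPM in the wild type (SD, n = 4 each; edgeR adjusted p = 0.548).

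Gstz1, the maleylacetoacetate isomerase, fell to 43.7, 41.9, 46.5 and 41.4 CPM in the knockout libraries, against 67.5, 65.3, 64.3 and 66.6 CPM in the wild-type libraries (log2 fold change -0.60 with SE 0.041 and edgeR adjusted p = 1.20e-10). Fah, the hydrolase that completes the pathway, had 128, 124, 137 and 126 CPM in the knockout libraries and 115, 118, 106 and 117 CPM in the wild-type libraries. That rise was small, with all knockout libraries above all wild-type ones (log2 fold change 0.18 with SE 0.042 and edgeR adjusted p = 0.00103). Qdpr and Pcbd1 are the reductase and the dehydratase that regenerate tetrahydrobiopterin, the cofactor of the aromatic amino acid hydroxylases, and Pcbd1 also serves as a dimerization cofactor of the transcription factor HNF1. Both fell, Qdpr to 56.6 ± 1.07 CPM in the knockout against 78.8 ± 4.04 CPM in the wild type, and Pcbd1 to 71.96 ± 3.22 CPM in the knockout against 107 ± 5.13 CPM in the wild type (SD, n = 4 each).

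Both sulphur amino acid members, Cdo1 and Csad, rose. Cdo1, cysteine dioxygenase, oxidizes cysteine to its sulphinate, and Csad decarboxylates that product on the way to taurine. Cdo1 stood at 708, 638, 754 and 673 CPM in the knockout libraries, against 476, 534, 424 and 476 CPM in the wild-type libraries (log2 fold change 0.54 with SE 0.057 and edgeR adjusted p = 7.62e-08). Csad stood at 38.8, 33.7, 38.0 and 32.9 CPM in the knockout libraries, against 18.8, 19.9, 18.5 and 18.6 CPM in the wild-type libraries. The lowest knockout library was far above the highest wild-type one for Csad, whose fitted rise was 1.89-fold (log2 fold change 0.92 with SE 0.061 and edgeR adjusted p = 6.71e-11). Per kilobase of transcript, Cdo1 had the highest level of all members in the knockout, at 435 CPM per kilobase, and came after Glud1 in the wild type, where it had 299 CPM per kilobase. Suox and Ado, listed beside the members and named here after their values were seen, fell. Suox, sulphite oxidase, fell by 0.53 on the log2 scale (edgeR adjusted p = 4.83e-06). Ado, the cysteamine dioxygenase, fell by 0.21 with overlapping libraries (edgeR adjusted p = 0.00429).

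**Figure D2:**
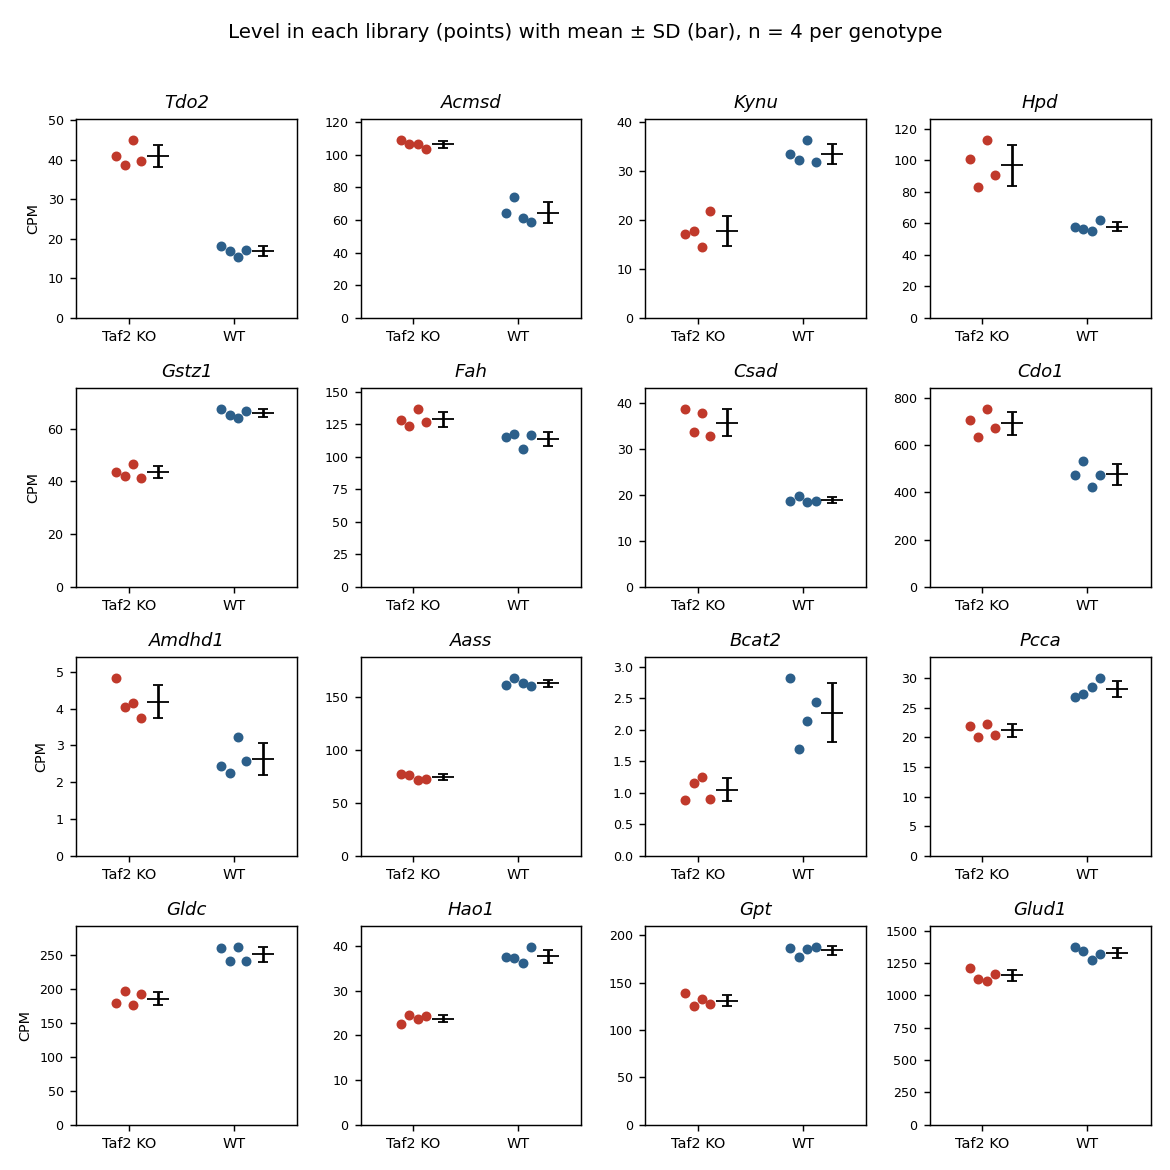
CPM (y axis, starting at 0) of 16 members in each of the 4 knockout and 4 wild-type libraries, one point per library, with mean ± SD beside the points. For all 16 the points of the genotypes are separate, from Tdo2 (38.7 to 45.04 CPM in the knockout, 15.2 to 18.3 CPM in the wild type) to Fah, where the gap between genotypes is narrow (124 to 137 CPM in the knockout, 106 to 118 CPM in the wild type).

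Histidine is broken down through urocanate to glutamate. Uroc1, urocanate hydratase, and Amdhd1, the imidazolonepropionase after it, both rose. Amdhd1 stood at 4.82, 4.05, 4.15 and 3.74 CPM in the knockout libraries, against 2.43, 2.24, 3.24 and 2.58 CPM in the wild-type libraries. It rests on 79 to 114 counts per knockout library and 46 to 62 per wild-type library (log2 fold change 0.69 with SE 0.14 and edgeR adjusted p = 0.000194). Uroc1 averaged 46.3 ± 3.96 CPM in the knockout and 38.4 ± 1.73 CPM in the wild type (SD, n = 4 each; log2 fold change 0.27; edgeR adjusted p = 0.000237). Ftcd, the transferase that passes the formimino group to folate, stood at 131, 126, 132 and 123 CPM in the knockout libraries and 128, 132, 124 and 124 CPM in the wild-type libraries, which overlapped (edgeR adjusted p = 0.846).

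Most genes of branched-chain amino acid breakdown fell. Of the 9 genes 7 fell, 0 rose and 2 did not pass, where 31.2% of all genes tested fell and 30.2% rose. The median log2 fold change of the 9 was -0.37. Bcat2, the mitochondrial branched-chain transaminase, which the liver expresses weakly, had 0.889, 1.15, 1.254 and 0.900 CPM in the knockout libraries, against 2.82, 1.70, 2.14 and 2.44 CPM in the wild-type libraries. The values are 19 to 29 counts per knockout library and 35 to 65 per wild-type library, and its standard error is the largest of the group (log2 fold change -1.12 with SE 0.20 and edgeR adjusted p = 6.18e-05).

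The branched-chain ketoacid dehydrogenase, the committed step, has a decarboxylase made of the Bckdha and Bckdhb subunits and a transacylase core made of Dbt. Dbt fell to 51.3 ± 3.14 CPM in the knockout against 65.6 ± 1.45 CPM in the wild type (SD, n = 4 each; log2 fold change -0.36 with SE 0.043 and edgeR adjusted p = 4.11e-07). Bckdhb fell by 0.23 (SE 0.081; edgeR adjusted p = 0.0194) with overlapping libraries, and it lost its call without knockout replicate 2 (adjusted p = 0.0882), wild-type replicate 1 (0.05003) or wild-type replicate 4 (0.0517), in a range from 0.00359 to 0.0882 over all alternatives. Bckdha averaged 24.7 ± 0.832 CPM in the knockout and 25.7 ± 1.519 CPM in the wild type (SD, n = 4 each; edgeR adjusted p = 0.384).

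In the leucine branch, Ivd, isovaleryl-CoA dehydrogenase, fell to 17.2 ± 0.358 CPM in the knockout against 33.5 ± 0.592 CPM in the wild type (SD, n = 4 each), a 1.95-fold fall with very little spread (log2 fold change -0.96 with SE 0.051 and edgeR adjusted p = 2.00e-12). Mccc1 and Mccc2, the biotin-carrying and the catalytic subunit of the next carboxylase, fell by 0.40 and 0.57 on the log2 scale. In the valine branch the hydrolase Hibch fell by 0.37, whereas Hibadh, the dehydrogenase after it, had 105, 105, 98.8 and 97.7 CPM in the knockout libraries and 106, 104, 109 and 106 CPM in the wild-type libraries (edgeR adjusted p = 0.141).

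Propionyl-CoA, the end product of valine, isoleucine, methionine and threonine, enters the citric acid cycle through propionyl-CoA carboxylase and methylmalonyl-CoA mutase. Pcca, the biotin-carrying subunit of the carboxylase, had 21.9, 20.1, 22.3 and 20.4 CPM in the knockout libraries, against 26.9, 27.3, 28.6 and 29.98 CPM in the wild-type libraries (log2 fold change -0.41 with SE 0.057 and edgeR adjusted p = 3.45e-06). Its partner subunit Pccb had 65.4, 63.7, 69.2 and 61.1 CPM in the knockout libraries and 62.6, 64.6, 63.8 and 67.4 CPM in the wild-type libraries, which overlapped (edgeR adjusted p = 0.901). There were 0.316 to 0.335 Pcca counts for each Pccb count in the knockout libraries and 0.422 to 0.447 in the wild-type libraries.

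This subunit pair was 1 of 6 pairs compared after the members' values were seen. Its log2 ratio differed by -0.42, with p = 0.029 in an exact two-sided permutation test and 0.057 adjusted over the 6 pairs. Kynu over Kmo and Fah over Gstz1 gave the same pair of p-values, with differences of -0.92 and 0.78. The ratios of Bckdhb to Bckdha, Mccc2 to Mccc1 and Amt to Gldc overlapped between genotypes, at unadjusted exact permutation p = 0.086, 0.17 and 0.20. No pair of the 6 passed after adjustment. The pairs at p = 0.029 in the exact permutation test had the smallest p this design allows. Their adjusted value of 0.057 also depended on how many of the 6 pairs reached that smallest p. Without knockout replicate 3 the pairs of Pcca, Kynu, Fah and Bckdhb came to an adjusted exact permutation p of 0.0429, as did those of Pcca, Kynu, Fah and Amt without knockout replicate 4. For Pcca, Kynu and Fah the adjusted value fell only because a further pair reached the smallest exact p. It therefore says nothing more about any of these pairs. Mut, the mutase, fell by 0.13 (SE 0.042; edgeR adjusted p = 0.00938), the smallest change called among the members, and lost its call without knockout replicate 4 (adjusted p = 0.0620), in a range from 0.00190 to 0.0620 over all alternatives.

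Aass, the enzyme with both lysine-ketoglutarate reductase and saccharopine dehydrogenase activity that starts lysine breakdown, had the largest fall of all members. It stood at 77.2, 75.9, 71.1 and 72.1 CPM in the knockout libraries, against 161, 168, 163 and 160 CPM in the wild-type libraries. The genotypes were far apart and the libraries of each close together (2.20-fold lower in the knockout; log2 fold change -1.14 with SE 0.037 and edgeR adjusted p = 1.94e-15).

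Glycine is split by the mitochondrial glycine cleavage system, in which Gldc decarboxylates it, Gcsh carries the intermediate and Amt releases ammonia. Gldc fell to 179, 196, 176 and 192 CPM in the knockout libraries, against 260, 242, 261 and 241 CPM in the wild-type libraries (log2 fold change -0.43 with SE 0.043 and edgeR adjusted p = 2.59e-08). Gcsh fell to 55.0 ± 1.43 CPM in the knockout against 70.1 ± 2.60 CPM in the wild type (SD, n = 4 each; log2 fold change -0.35, SE 0.038). Amt averaged 9.59 ± 1.23 CPM in the knockout and 11.04 ± 0.864 CPM in the wild type, and missed the threshold (edgeR adjusted p = 0.0580), passing in 4 of 17 alternatives at values from 0.0291 to 0.259 over all of them. Per kilobase of transcript the order in both genotypes was Gldc, Gcsh and Amt, at 49.3, 38.1 and 4.61 CPM per kilobase in the knockout and 66.6, 48.6 and 5.30 CPM per kilobase in the wild type. Sdsl, a serine dehydratase-like enzyme, averaged 15.4 ± 1.42 CPM in the knockout and 14.9 ± 0.304 CPM in the wild type (SD, n = 4 each; edgeR adjusted p = 0.533).

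Glyoxylate is made in peroxisomes by Hao1, glycolate oxidase, and turned into glycine by the aminotransferase Agxt. Hao1 had 22.6, 24.6, 23.6 and 24.3 CPM in the knockout libraries, against 37.5, 37.4, 36.2 and 39.7 CPM in the wild-type libraries (log2 fold change -0.67 with SE 0.050 and edgeR adjusted p = 4.42e-10). Agxt averaged 13.4 ± 1.03 CPM in the knockout and 12.2 ± 1.79 CPM in the wild type (SD, n = 4 each; edgeR adjusted p = 0.209), and passed in 1 alternative, without wild-type replicate 4 (adjusted p = 0.0279), in a range from 0.0279 to 0.567. There were 1.62 to 2.00 Hao1 counts per Agxt count in the knockout libraries and 2.73 to 3.59 in the wild-type libraries. The log2 ratio was lower by 0.81 in the knockout (exact two-sided permutation p = 0.029, adjusted p = 0.038 over the 4 pairs).

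Proline is oxidized by Prodh and then by Aldh4a1, which makes glutamate. The genes of these consecutive mitochondrial steps moved in opposite directions by small amounts. Prodh had 32.0, 33.4, 32.6 and 32.6 CPM in the knockout libraries, against 41.3, 37.8, 39.9 and 36.2 CPM in the wild-type libraries (log2 fold change -0.25 with SE 0.049 and edgeR adjusted p = 0.000171). Aldh4a1 had 54.1, 48.4, 60.7 and 52.4 CPM in the knockout libraries, against 42.9, 43.9, 43.6 and 41.6 CPM in the wild-type libraries (log2 fold change 0.33 with SE 0.054 and edgeR adjusted p = 2.75e-05).

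Nitrogen from these pathways passes through alanine and glutamate. Glud1, glutamate dehydrogenase, was the member with the most counts and the highest level per kilobase in the wild type, at 391 CPM per kilobase, against 340 CPM per kilobase in the knockout. It stood at 1210, 1129, 1114 and 1162 CPM in the knockout libraries, against 1371, 1345, 1272 and 1321 CPM in the wild-type libraries (log2 fold change -0.20 with SE 0.036 and edgeR adjusted p = 7.45e-05). Glud1, Cdo1 and Gpt2 together held 53.9% of the members' summed CPM in the knockout and 50.5% in the wild type.

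Of the alanine aminotransferases, the cytosolic Gpt fell and the mitochondrial Gpt2 did not pass. Gpt had 139, 125, 132 and 127 CPM in the knockout libraries, against 187, 177, 186 and 187 CPM in the wild-type libraries (log2 fold change -0.49 with SE 0.039 and edgeR adjusted p = 9.37e-10). Gpt2 averaged 325 ± 10.3 CPM in the knockout and 341 ± 12.4 CPM in the wild type (SD, n = 4 each; edgeR adjusted p = 0.111); it passed with library totals only (adjusted p = 0.0268) and without wild-type replicate 4 (0.0498), in a range from 0.0268 to 0.299. There were 2.39 to 2.54 Gpt2 counts per Gpt count in the knockout libraries and 1.74 to 2.01 in the wild-type libraries. This within-library ratio does not depend on how libraries are scaled, and its log2 value was higher by 0.42 in the knockout (exact two-sided permutation p = 0.029, adjusted p = 0.038 over the 4 pairs).

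**Figure D3:**
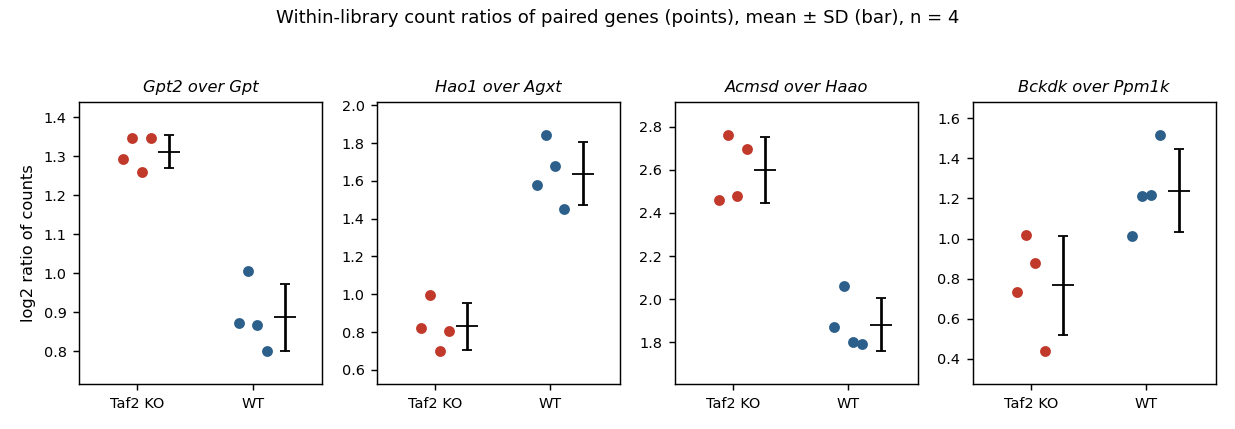
Log2 ratio of the counts of 2 genes in the same library (y axis), for the 4 pairs chosen for testing, one point per library, with mean ± SD. These pairs were chosen with earlier results of these data known. The genotypes are separate for Gpt2 over Gpt, Hao1 over Agxt and Acmsd over Haao, and overlap for Bckdk over Ppm1k.

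Members were also grouped by where the enzyme resides, after the values were seen and with no test. Of 21 enzymes known to reside in mitochondria 14 fell, 1 rose (Aldh4a1) and 6 did not pass, with a median log2 fold change of -0.25. Of 18 mainly cytosolic proteins 9 rose, 5 fell (Gstz1, Qdpr, Pcbd1, Kynu and Gpt) and 4 did not pass, with a median of 0.12. Of the 2 peroxisomal members 1 fell and 1 did not pass. Over all genes tested 31.2% fell and 30.2% rose, and of those averaging 10 CPM or more 35.9% fell and 28.7% rose. Among the mitochondrial genes the range was -1.14 to 0.33, and among the cytosolic genes it was -0.92 to 1.28.

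Another 51 genes of amino acid breakdown were listed beside the members, and 49 of them were tested. Of these 25 fell and 12 rose, where 31.2% of all genes tested fell and 30.2% rose, and the median log2 fold change was -0.16, near that of the members. The genes with the smallest p among those that rose were the liver glutaminase Gls2 (65.5 ± 5.51 CPM in the knockout, 24.8 ± 0.725 CPM in the wild type) and the tyrosine aminotransferase Tat (126 ± 17.6 CPM in the knockout, 52.3 ± 0.588 CPM in the wild type). They were followed by the serine dehydratase Sds (10.46 ± 2.01 CPM in the knockout, 1.31 ± 0.356 CPM in the wild type) and the mitochondrial serine hydroxymethyltransferase Shmt2 (357 ± 21.2 CPM in the knockout, 220 ± 5.35 CPM in the wild type; SD, n = 4 each). Sds had the largest change of the list, at a log2 fold change of 2.98 (SE 0.17; edgeR adjusted p = 6.35e-12).

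Those that fell with the smallest p were Ccbl1, a kynurenine aminotransferase (30.3 ± 2.22 CPM in the knockout, 67.2 ± 2.98 CPM in the wild type), and Qprt, which commits quinolinate to NAD synthesis (27.9 ± 1.14 CPM in the knockout, 51.4 ± 1.70 CPM in the wild type). Next came the aminotransferase Agxt2 (27.4 ± 1.35 CPM in the knockout, 43.1 ± 2.58 CPM in the wild type) and Aldh7a1, the dehydrogenase of lysine breakdown downstream of Aass (130 ± 2.75 CPM in the knockout, 174 ± 5.61 CPM in the wild type; SD, n = 4 each). Got2, the mitochondrial aspartate aminotransferase and the most abundant gene of the list, fell to 451 ± 12.7 CPM in the knockout against 546 ± 11.3 CPM in the wild type (edgeR adjusted p = 6.64e-07).

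The branched-chain ketoacid dehydrogenase is switched off by the kinase Bckdk and on by the phosphatase Ppm1k. Bckdk fell to 9.03 ± 0.877 CPM in the knockout against 13.9 ± 1.00 CPM in the wild type (log2 fold change -0.63, SE 0.080), and Ppm1k averaged 5.32 ± 0.756 CPM in the knockout and 5.91 ± 0.687 CPM in the wild type (SD, n = 4 each; edgeR adjusted p = 0.243). Their log2 ratio differed by -0.47 with overlapping libraries (exact two-sided permutation p = 0.057, also 0.057 adjusted over the 4 pairs). With a pseudocount of 5, or without knockout replicate 2, the adjusted p was 0.029.

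**Figure D4:**
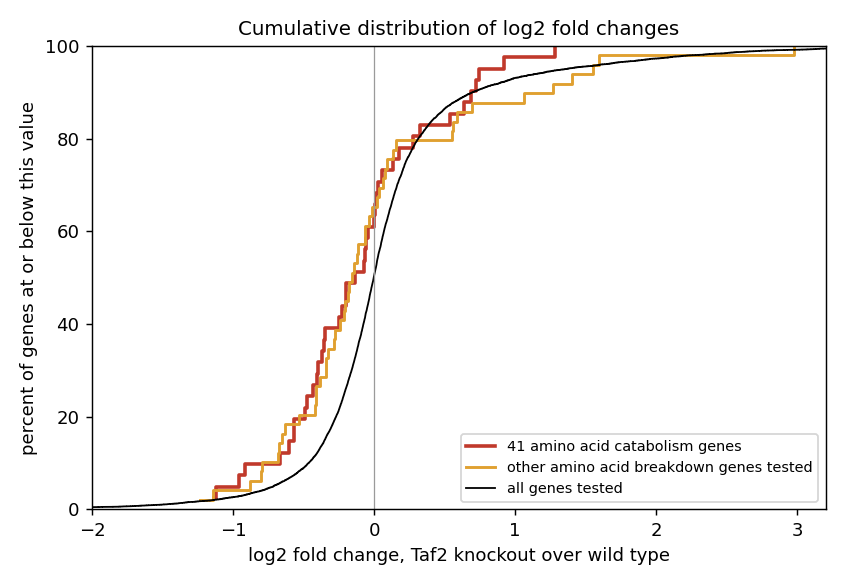
Percent of genes (y axis) at or below each log2 fold change (x axis, Taf2 knockout over wild type) for the 41 members, the 49 other amino acid breakdown genes tested and all 12122 genes tested. Both amino acid curves lie above the curve of all genes between about -1 and 0, and their medians are -0.13 and -0.16.

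Summed over the 41 members, transcripts for amino acid breakdown came to 3911 to 4146 CPM in the knockout libraries and 4128 to 4318 CPM in the wild-type libraries. By pathway, the summed level of the tryptophan genes was 222 to 236 CPM in the knockout and 169 to 182 CPM in the wild type, and that of the sulphur pair was 671 to 792 CPM in the knockout and 442 to 554 CPM in the wild type. The branched-chain genes summed to 253 to 267 CPM in the knockout and 309 to 319 CPM in the wild type, and the glycine and serine genes to 256 to 277 CPM in the knockout and 335 to 358 CPM in the wild type. These 4 sums did not overlap between genotypes, and Cdo1 made up most of the sulphur sum. Nor did the sums of the lysine, glyoxylate, propionate, histidine, and transamination and glutamate genes overlap. The histidine sums all but touched, at 171.873 to 186.81 CPM in the knockout and 166.246 to 171.869 CPM in the wild type. The transamination and glutamate sum was the largest, at 1564 to 1688 CPM in the knockout and 1796 to 1900 CPM in the wild type. Of all single genes tested, 54.7% did not overlap either. The sum over the tyrosine genes overlapped, at 390 to 442 CPM in the knockout and 427 to 457 CPM in the wild type, as did that of the proline genes.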

How the data were processed

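RNA from plated mouse hepatocytes (4 Taf2 knockout and 4 wild-type libraries) was sequenced from Illumina TruSeq libraries on a HiSeq3000, per the labels' protocols. The authors deposited estimated counts per gene. RSEM and mm10 are named in the submitters' processing notes, while aligner, strand setting and versions were not given in the sources used here. All values of the members were whole. A further 8 columns correspond to no labelled sample and stayed out. The members, lists and tests were chosen with earlier results of these data known.

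Counts were rounded, filtered with filterByExpr (minimum count 10, minimum total 15), scaled by TMM and tested knockout against wild type across all genes with edgeR 4.0.16 (R 4.3.3). Benjamini-Hochberg adjustment was applied at a threshold of 0.05. Standard errors came from dividing the size of the log2 fold change by the root of the F statistic. Levels per kilobase used GENCODE transcript lengths. Log2 ratios of gene pairs used a pseudocount of 0.5 and exact permutation tests. The fit was checked on simulated data. Alternatives were RLE, upper-quartile and unscaled totals, DESeq2 1.42.0, limma-voom (limma 3.58.1), other filters, thinning to the smallest library, a replicate block and leaving out each library. Replicates of a genotype differed beyond sampling noise (chi-square per degree of freedom 3.16 to 8.60). Values in every library are given for the called members with the largest rise and fall of each pathway and for its most abundant member, and the other breakdown genes were named by smallest adjusted p.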

Additional observations from a re-analysis of the deposited data

Results flagged for a closer look

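Of 102 groups of 4 libraries examined (each member in each genotype, and the log2 ratio of each gene pair), 2 had a library set apart from its group by Dixon's criterion, and chance alone flags about 1 in 20 groups. In the wild type, 1 library had 177 CPM of Gpt and the other 3 had 186 to 187 CPM, all above every knockout library. In the wild type, 1 library had 15.4 CPM of Sdsl and the other 3 had 14.7 to 14.8 CPM, a gene that did not pass.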

How the results depend on the processing

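Of the 30 called members 28 kept their direction and their call in all 17 alternatives, and Bckdhb and Mut lost the call without the libraries named above. No called member changed sign. Amt passed with library totals only, with no low-count filter, without knockout replicate 1 and without wild-type replicate 3, and Hibadh passed with library totals only. Counts of called members stayed at 10 or 11 higher and 19 to 23 lower. No pairing by replicate number was seen (correlations of same-numbered libraries between -0.069 and 0.011), although this cannot show whether same-numbered libraries were prepared together. With a replicate block the member counts were again 10 and 20.

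Members near 0 changed sign without a call. Kmo was at 0.00326 on the log2 scale with RLE, 0.0216 with upper-quartile scaling and 0.0113 with a mean of at least 1 CPM. With library totals only, Haao was at -0.00259, Pccb at -0.0211 and Ftcd at -0.0184, and Pccb was at -0.00156 with no low-count filter. On leaving out each library in turn, Kmo ranged from -0.0448 to 0.0695, Haao from -0.0290 to 0.0813, Pccb from -0.0215 to 0.0405 and Ftcd from -0.00572 to 0.0346. The cause of these shifts was not tested.

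With replicate-block permutation the ratios of Gpt2 to Gpt, Hao1 to Agxt and Acmsd to Haao kept differences of 0.42, -0.81 and 0.72 at p = 0.125, the smallest exact p for 4 pairs. The Bckdk to Ppm1k difference was -0.47 with pseudocount 5 and between -0.56 and -0.36 on leaving out a library. Genes under 5 CPM, here Bcat2 and Amdhd1, rest on few counts.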

Other observations

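Knockout replicates 1 and 3 both exceeded replicates 2 and 4 in CPM for 19 of the 41 members (46.3%), against 19.3% of all genes tested, and lay below them for 5 members (12.2%), against 19.2%. Among the 10 members that rose, 8 had replicates 1 and 3 on top, Tdo2, Hpd, Csad and Cdo1 among them. All 4 knockout libraries of these genes stood above all wild-type libraries. This order was noticed after the values were seen and was not tested, and the labels give no date or batch that separates these libraries.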
